A study of Mus musculus with 16 samples.

Results

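The genes described here are 9 mouse genes of the Smad2/3 branch of TGF-β signaling: the signal transducers *Smad2*, *Smad3* and *Smad4*, the co-repressors *Ski*, *Skil* and *Tgif1*, and the response genes *Pmepa1*, *Ldlrad4* and *Tgfbi*. They were chosen by symbol, and all 9 were found among the 56748 genes of the count table. The cells were TM4, an established mouse line used as a model of Sertoli cells, the somatic support cells of the testis. They were transiently transfected, with Lipofectamine 3000, either with a plasmid for *gdf6Y* (5 samples), the sex-determining gene of the turquoise killifish, or with a plasmid for its mutant variant *gdf6Y* del9 (5 samples, hereafter del9), which carries an in-frame deletion in the part of the gene that encodes the prodomain. The third group received the empty vector pcDNA3.1-HA (EV, 6 samples). Every group thus received plasmid DNA, 2.5 µg per well, 24 h after seeding, and RNA was isolated 24 h after transfection. A fish ligand was therefore read out in mouse cells of a single line, and the share of cells that took up a plasmid is not given in the sources used here. Nothing in the labels says whether the samples of a group came from separate cultures, so the spread between them may be technical. In edgeR's test, used for most p-values here, that spread was estimated largely from all genes together and only to a small degree from a gene's own samples, so a gene that varies more than others of its abundance gets a p-value that is too small and an interval that is too narrow.

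Ligands such as TGF-β and activin assemble type II and type I receptors at the cell surface, and the type I receptor phosphorylates Smad2 and Smad3. The phosphorylated Smads join Smad4, enter the nucleus and switch target genes on or off, while Ski, Skil and Tgif1 bind Smads there and recruit histone deacetylase complexes. Pmepa1 and Ldlrad4 are membrane proteins that bind Smad2 and Smad3 and keep them from the receptor, and *Pmepa1* and *Skil* are themselves induced by TGF-β, which gives the branch its negative feedback. BMP and GDF ligands, the family that Gdf6 belongs to, act mainly through Smad1, Smad5 and Smad9 and raise *Id* genes. In the study's luciferase reporter assay in medaka cells, however, *gdf6Y* significantly activated Smad2, Smad3 and Smad9 when set against its mutant variants. The counts measure mRNA and say nothing of phosphorylation.

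The question for this branch was whether its genes moved with *gdf6Y*. Of the 9 members, *Pmepa1* alone was higher with *gdf6Y* than with EV, *Skil* alone was higher with *gdf6Y* than with del9, and *Ldlrad4* alone was lower with del9 than with EV. These 3 differences were folds of 1.07, 1.09 and 0.876, and none of the 3 genes passed the test in both comparisons of *gdf6Y*. Each of the 3 calls was lost under some of the other settings of the analysis. *Smad2* did not pass the test against EV in the reported fit, but it was called lower there in 3 of 9 other settings, DESeq2 among them. Thus 1 of 9 members passed in each comparison, where 5.08%, 1.01% and 9.25% of all genes tested passed. Of genes averaging at least 100 counts, 12.9%, 1.97% and 21.7% passed. In the same samples 7 of 10 genes of the BMP branch rose with *gdf6Y* in both comparisons, by 0.35 to 1.58 on the log2 scale. The study had already reported *Smad6*, *Smad7*, *Smad9*, *Id1*, *Id2* and *Id3* among them from TM4 cells, so this contrast is not an independent test.

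Between 21486850 and 26444903 reads per sample were counted on genes. A normalized count is the read count brought to the average TMM-scaled library of the 16 samples with edgeR. Of 10 Sertoli cell markers, 5 had a mean of at least 10 normalized counts in every group (*Gata4*, *Sox9*, *Kitl*, *Dhh* and *Inha*), and *Wt1* and *Dmrt1* had no read in any sample. The summed level of the 10 markers was between 1681 and 1769 with EV, 1495 and 1619 with *gdf6Y* and 1570.4 and 1734 with del9. That of 4 peritubular myoid cell markers was between 4478 and 4714 with EV, 4710.1 and 5057 with *gdf6Y* and 4571 and 4839.8 with del9, nearly all of it *Acta2*. Markers of Leydig cells (5), macrophages (4) and germ cells (3) summed to at most 68.0 normalized counts in any sample. What these shifts contribute to the results was not tested.

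On a scale comparable between genes, RPKM (reads divided by the exon length and by the TMM-scaled library size), the members with EV were ordered *Smad4* (17.6 ± 0.387, SD, n = 6), *Pmepa1* (15.4 ± 0.346), *Ski* (12.4 ± 0.427), *Skil* (11.2 ± 0.290), *Tgif1* (9.62 ± 0.264), *Smad2* (8.84 ± 0.217) and *Smad3* (7.01 ± 0.212). *Ldlrad4* was an order of magnitude lower (0.772 ± 0.0522) and *Tgfbi* was barely detected (0.0236 ± 0.00778). The samples of neighbouring genes in this order did not overlap with EV. With *gdf6Y* the order was the same, but the samples of *Smad4* and *Pmepa1* overlapped, as did those of *Ski* and *Skil*, and with del9 only those of *Smad4* and *Pmepa1* did. *Smad4*, the shared partner of both Smad branches, thus stood first in all 3 groups. The lengths are the summed exons of all annotated transcripts, so a gene whose TM4 transcripts are shorter than that sum is understated.

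**Figure D1:**
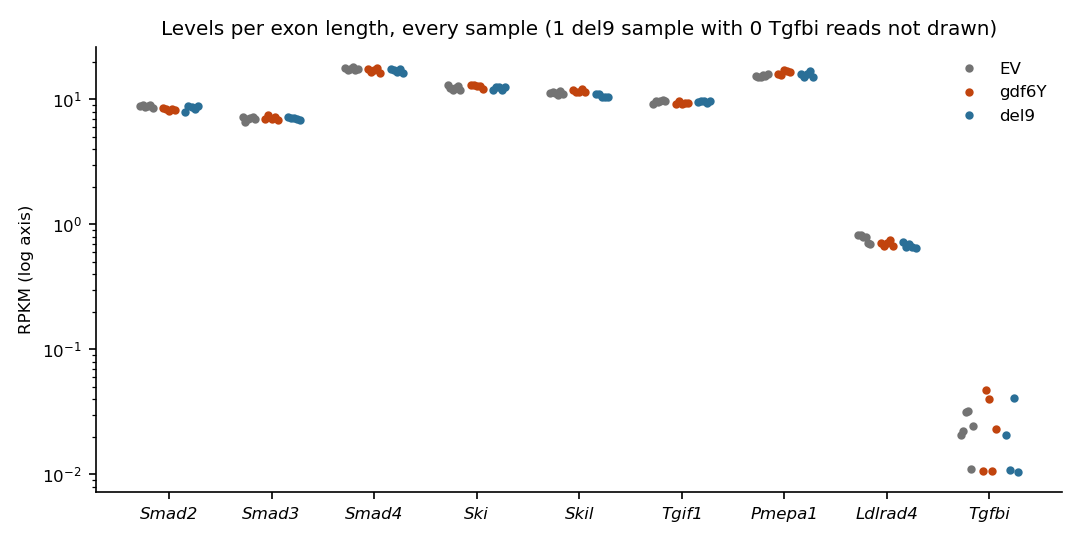
Level of each member in RPKM (log axis) in every EV, gdf6Y and del9 sample, 1 point per sample; the del9 sample with 0 Tgfbi reads is not drawn. *Ldlrad4* lies between 0.650 and 0.817, *Tgfbi* below 0.05 and the other 7 members between 6.62 and 18.1.

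The 3 transducers were compared first. *Smad2* (GRCm39 chromosome 18, 76374327 to 76445180, plus strand) encodes a receptor-activated Smad. Its normalized count was 2368 to 2525 with EV (median 2456), 2362, 2340.3, 2260.1, 2330.1 and 2265 with *gdf6Y*, and 2195, 2449, 2397, 2345 and 2456 with del9. Every *gdf6Y* sample thus lay below every EV sample, while the del9 samples reached across both groups. The log2 fold change was -0.08 against EV (95% interval -0.14 to -0.02, 0.944-fold) and did not pass the threshold of 0.05 (adjusted p = 0.101 by edgeR's quasi-likelihood method, with the Benjamini-Hochberg correction over all genes). It did pass with DESeq2 (adjusted p = 0.0257) and with edgeR's filterByExpr (adjusted p = 0.0375). Against del9 the value was -0.03 (interval -0.10 to 0.04, adjusted p = 0.755 in edgeR's test).

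*Smad3* (chromosome 9, 63554049 to 63665476, minus strand), the other receptor-activated Smad, was counted at 946 to 1025 with EV (median 1009). It was at 996, 1071, 987, 1040.1 and 977 with *gdf6Y*, and at 1029, 1005, 1014, 1001 and 977 with del9. The 3 groups overlapped throughout. The log2 fold change with *gdf6Y* was 0.02 against EV (interval -0.06 to 0.09) and 0.02 against del9 (-0.06 to 0.10), so the 95% intervals reach no further than folds of 0.957 and 1.07 (adjusted p = 0.845 and 0.913 in edgeR's test). *Smad4* (chromosome 18, 73769343 to 73836915, minus strand) was counted at 3069 to 3236 with EV (median 3138). It was at 3138, 2989, 3075, 3179 and 2931 with *gdf6Y* and at 3154, 3049, 2984, 3119 and 2897 with del9. These groups overlapped as well, with log2 fold changes of -0.04 against EV (interval -0.10 to 0.02, edgeR's adjusted p = 0.570) and 0.02 against del9 (-0.05 to 0.08, adjusted p = 0.892).

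**Figure D2:**
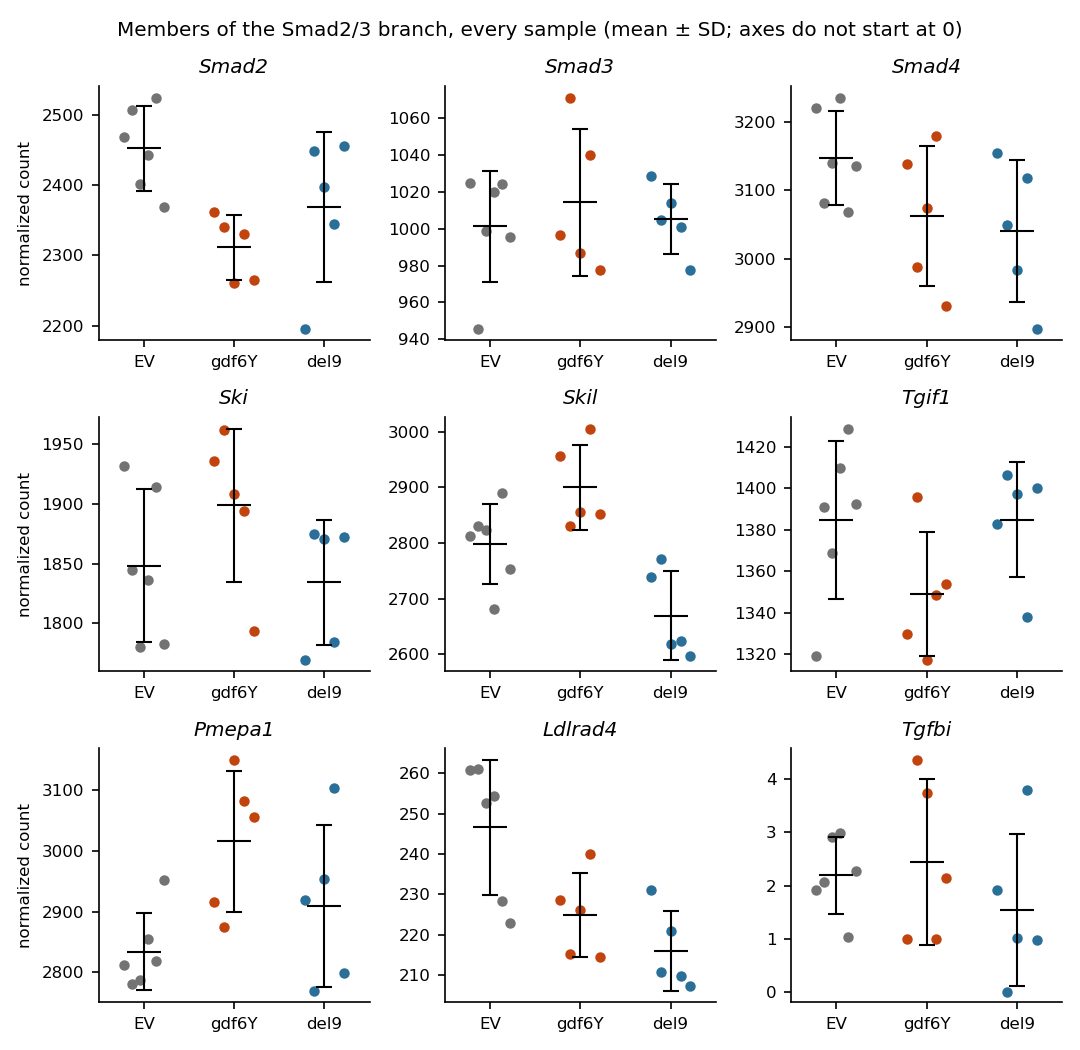
Normalized count of each member (y axis, not starting at 0) in every EV, gdf6Y and del9 sample, with the mean and SD of each group as a bar with whiskers. The *gdf6Y* points lie below all EV points for *Smad2* and above all del9 points for *Skil*, and the *gdf6Y* points overlap the compared group for every other member.

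The co-repressors held the second of the 3 calls. *Skil* (also called SnoN, chromosome 3, 31148816 to 31176740, plus strand) was counted at 2957, 2830.0, 2855, 3006 and 2852 with *gdf6Y* and at 2738, 2771, 2618, 2623 and 2596 with del9. Every *gdf6Y* sample lay above every del9 sample. With EV the counts were 2681 to 2890.4 (median 2818), between the other groups and overlapping both. *Skil* rose by 0.12 on the log2 scale against del9 (standard error 0.03, interval 0.06 to 0.19, 1.09-fold, adjusted p = 0.0268 in edgeR's test). Against EV the value was 0.05 (interval -0.01 to 0.11, adjusted p = 0.430), and del9 against EV gave -0.07 (interval -0.12 to -0.01, adjusted p = 0.180 in edgeR's test). The call against del9 was lost with filterByExpr (adjusted p = 0.0745), with no filter (0.0587) and in 5 of the 10 fits that left out a sample, those without *gdf6Y* replicate 1 or 4 or del9 replicate 3, 4 or 5 (adjusted p up to 0.184), all with edgeR. DESeq2 called it.

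*Ski* (chromosome 4, 155238532 to 155307543, minus strand), the paralog of *Skil*, was counted at 1780.5 to 1931 with EV (median 1840.5). It was at 1936, 1962, 1908, 1894 and 1794 with *gdf6Y* and at 1769.6, 1875, 1870.3, 1784 and 1872 with del9. The *gdf6Y* samples held the highest value, but the groups overlapped. The log2 fold change was 0.04 against EV (interval -0.02 to 0.10) and 0.06 against del9 (-0.02 to 0.13), with adjusted p = 0.570 and 0.654 in edgeR's test. *Tgif1* (chromosome 17, 71151192 to 71160541, minus strand), a homeodomain co-repressor, was counted at 1319 to 1429 with EV (median 1392). It was at 1329.6, 1396, 1317, 1349 and 1354 with *gdf6Y* and at 1383, 1406, 1397, 1338 and 1400.1 with del9. Here 4 of 5 *gdf6Y* samples lay below the EV median, with log2 fold changes of -0.04 against EV (interval -0.10 to 0.03, edgeR's adjusted p = 0.589) and -0.03 against del9 (-0.11 to 0.04, adjusted p = 0.756).

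Promoter windows of 300 bases from RefSeq (GRCm38.p6, 250 bases before to 50 after a start site) were used for 4 of the 9 members, *Smad3*, *Ski*, *Tgif1* and *Tgfbi*; *Skil* and *Pmepa1* have no entry. They were searched on both strands for letters that Smad proteins are known to bind: CAGAC, the palindrome GTCTAGAC and GGCGCC, none of which contains another. These letters are common, with CAGAC in 49.6%, GGCGCC in 11.9% and GTCTAGAC in 0.213% of all 32851 windows. The *Smad3* window held none of them. *Tgif1* had 5 windows, where *Smad3*, *Ski* and *Tgfbi* had 1 each, and the shares are per window. Its windows 1, 2 and 4 held CAGAC, and its windows 3 and 5 held none of the letters. The *Tgif1* stretch shown is from window 1. One stretch each is shown for the members with a match and, for comparison, for *Smad6*, picked because it passed the test in both comparisons of *gdf6Y* and holds the rare palindrome. Capitals mark the motifs on either strand (GTCTG is CAGAC on the other strand), and the text runs in the direction of the gene. Of the other BMP branch genes that rose in both comparisons and were searched, *Smad9* and *Id2* held GGCGCC, *Id3* held CAGAC and *Atoh8* held none of the 3. The stretches are chr4:155222733-155222771 (minus strand), chr17:70853712-70853750 (minus), chr13:56609493-56609531 (plus) and chr9:64022056-64022085 (minus). A match is a description of the sequence and not a bound site.
Ski: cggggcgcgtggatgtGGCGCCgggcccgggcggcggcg
Tgif1: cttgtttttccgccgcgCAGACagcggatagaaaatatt
Tgfbi: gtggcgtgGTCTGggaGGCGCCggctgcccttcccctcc
Smad6: agcgccgcggagccgccaaagtGTCTAGAC

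Among the response genes, *Pmepa1* (chromosome 2, 173066251 to 173118444, minus strand) held the call against EV. It was counted at 2779.9 to 2952 with EV (median 2815), at 2915, 2875, 3150.45, 3083 and 3056 with *gdf6Y*, and at 2919.7, 2769, 2953, 3104 and 2799 with del9. All 5 *gdf6Y* samples lay above the EV median, but 2 of them lay below the highest EV sample, and the del9 samples spanned most of both ranges. *Pmepa1* rose by 0.09 on the log2 scale against EV (standard error 0.03, interval 0.03 to 0.15, 1.07-fold, adjusted p = 0.0448 in edgeR's test). Against del9 the value was 0.06 (interval -0.01 to 0.12, adjusted p = 0.654), and del9 against EV gave 0.04 (-0.02 to 0.10, adjusted p = 0.492). The call was lost with no filter (adjusted p = 0.0967 in edgeR's test), with all 3 groups in one model (0.0530) and in 8 of the 11 fits that left out a sample: those without EV replicate 1, 2, 3, 4 or 5 or without *gdf6Y* replicate 3, 4 or 5 (adjusted p up to 0.226).

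*Ldlrad4* (chromosome 18, 68065687 to 68401701, plus strand) was counted at 223 to 261 with EV (median 253). It was at 229, 215, 226, 239.9 and 215 with *gdf6Y*, and at 231, 211, 221, 209.9 and 207 with del9. Every *gdf6Y* and every del9 sample thus lay below 4 of the 6 EV samples, and both groups overlapped the other 2. *Ldlrad4* fell by 0.19 on the log2 scale with del9 (standard error 0.07, interval -0.32 to -0.06, 0.876-fold, adjusted p = 0.0463 in edgeR's test). With *gdf6Y* the value against EV was -0.13 (interval -0.26 to -0.00189, adjusted p = 0.334), and *gdf6Y* against del9 gave 0.06 (-0.08 to 0.21, adjusted p = 0.736 in edgeR's test). The call in del9 was lost with no filter (adjusted p = 0.100), with a correction for gene length (0.138) and in 8 of the 11 fits that left out a sample, those without EV replicate 1, 2, 3 or 4 or del9 replicate 2, 3, 4 or 5 (adjusted p up to 0.123 in edgeR's test).

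*Tgfbi* (chromosome 13, 56757336 to 56787375, plus strand) encodes an extracellular matrix protein named for its induction by TGF-β. Between 1 and 3 of its reads were counted per EV sample, 1, 4, 4, 1 and 2 in the *gdf6Y* samples and 2, 0, 1, 4 and 1 in the del9 samples. With so few reads a difference was not detectable at this depth: the 95% interval against EV ran from 0.495-fold to 2.44-fold (adjusted p = 0.948 in edgeR's test), and that against del9 from 0.622-fold to 3.77-fold.

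**Figure D3:**
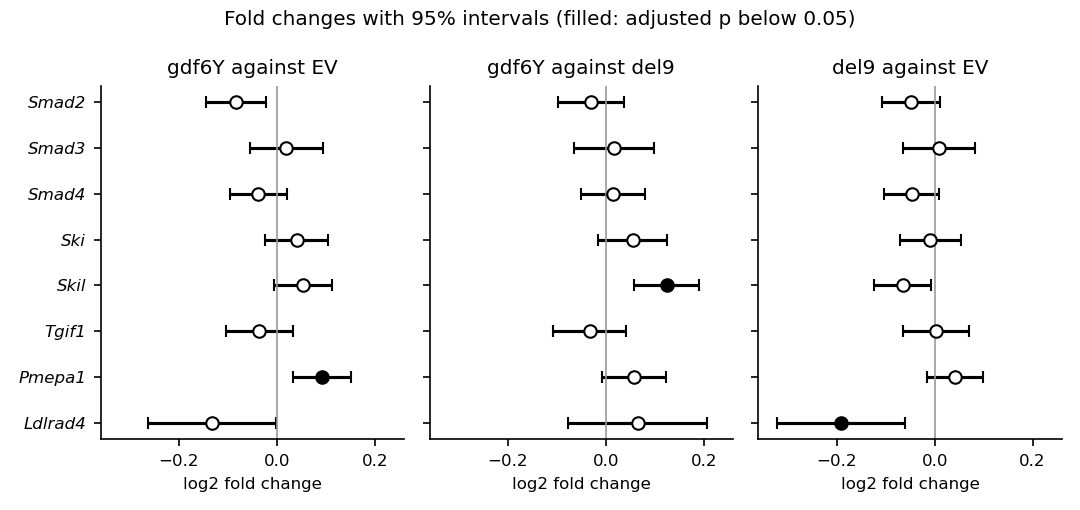
Log2 fold change (x axis) with its 95% interval for 8 members in the 3 comparisons; filled points have an adjusted p below 0.05, and *Tgfbi* is left out because its interval is wider than the axis. The 1 filled point in each comparison is *Pmepa1* at 0.09, *Skil* at 0.12 and *Ldlrad4* at -0.19.

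The counts of members called are set here beside those of all genes. In *gdf6Y* against EV, 1 of 9 members was called, where 5.08% of the 26316 genes tested were called (1.70% higher and 3.38% lower), and 12.9% of the 10075 genes averaging at least 100 counts, which 8 members reached. Groups did not overlap for 1 member (*Smad2*) and for 2.61% of all genes. In *gdf6Y* against del9, 1 of 9 was called, where 1.01% of 25878 genes were (0.599% higher and 0.410% lower) and 1.97% of those averaging at least 100 counts. Groups did not overlap for 1 member (*Skil*) and for 1.29% of all genes. In del9 against EV, 1 of 9 was called, where 9.25% of 26226 genes were (4.82% higher and 4.43% lower, or 1263 and 1162 genes, but 863 and 1492 when total counts replaced TMM) and 21.7% of the more abundant ones, and for no member, against 3.77% of all genes, did the groups not overlap. The median absolute log2 fold change of the members was 0.05, 0.06 and 0.05 in the 3 comparisons, where that of genes averaging at least 100 counts was 0.05, 0.04 and 0.06. The 2 comparisons of *gdf6Y* share the *gdf6Y* samples, both comparisons with EV share the EV samples, and both that include del9 share the del9 samples.

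The 3 calls were close to the threshold, and the settings moved them to either side while the fold changes stayed nearly the same. Over all settings and left-out samples the log2 fold change was between 0.08 and 0.11 for *Pmepa1* against EV, between 0.11 and 0.14 for *Skil* against del9 and between -0.22 and -0.16 for *Ldlrad4* in del9 against EV.

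**Figure D4:**
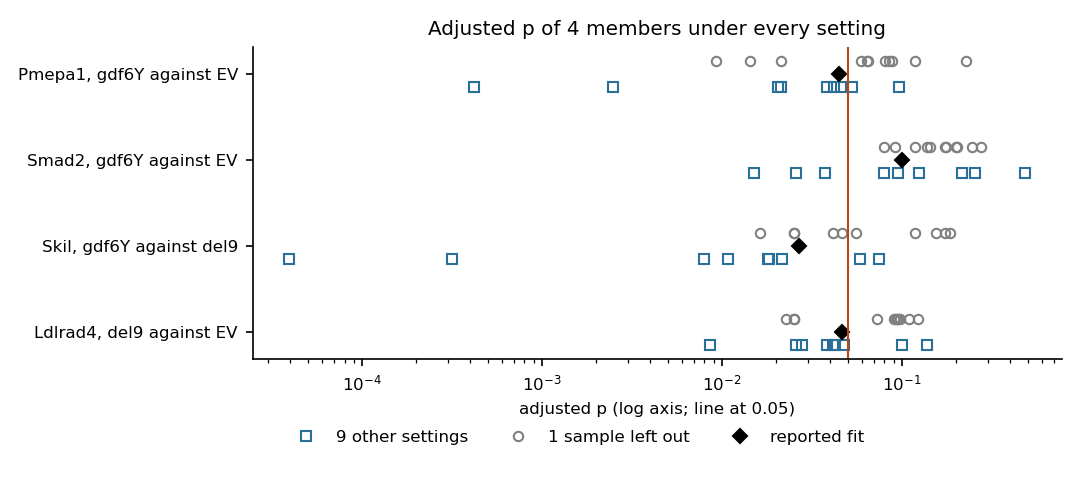
Adjusted p (log axis, line at 0.05) of 4 members under the reported fit (diamond), 9 other settings (squares) and each fit without 1 sample (circles). The points of each gene lie on both sides of the line: the lowest and highest are 0.000417 and 0.226 for *Pmepa1*, 3.95e-05 and 0.184 for *Skil*, and 0.00863 and 0.138 for *Ldlrad4*.

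Over the 16 samples the genes with the profile nearest to that of each called member were *Tmco1* and *Sfr1* for *Pmepa1*, *Smap1* and *Exoc5* for *Skil*, and *Abca5* and *Kdm5b* for *Ldlrad4*. Likeness was the root mean square difference of log2 values centred on each gene's mean, among 10075 genes. It was 0.0342 and 0.0363 for *Pmepa1*, 0.0318 and 0.0337 for *Skil* and 0.0390 and 0.0539 for *Ldlrad4*. The members' own profiles varied by 0.0592, 0.0590 and 0.103 on the same scale.

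The branch was then followed from its ligands to its targets, in lists of pathway genes. The counts called are to be read beside the shares over all genes. These were 5.08% of genes tested and 12.9% of those averaging at least 100 counts in *gdf6Y* against EV, and 1.01% and 1.97% in *gdf6Y* against del9. Of 8 ligands, *Mstn* and *Nodal* had no read, and 2 of the 6 tested fell in *gdf6Y* against EV. They were *Inhbb* (4410.3 ± 128 with EV, SD, n = 6, and 4107 ± 171 with *gdf6Y*, SD, n = 5) and *Inhba* (4076 ± 156 and 3810.4 ± 103), which encode the subunits of the activins. Their log2 fold changes were -0.10 and -0.10 (adjusted p = 0.0121 and 0.0237 in edgeR's test), and the groups overlapped. *Inhbb* was lost without EV replicate 1 or *gdf6Y* replicate 2 or 5 (adjusted p up to 0.102 in edgeR's test), and *Inhba* with no filter on low counts (adjusted p = 0.0510) and without EV replicate 2 or 5 or *gdf6Y* replicate 2 or 3 (up to 0.168). No ligand was called in *gdf6Y* against del9 or in del9 against EV in the reported fit or with DESeq2, where 1 of 6 had an unadjusted p under 0.05 in each. *Tgfb1*, *Tgfb2* and *Tgfb3*, the TGF-β ligands, were at 0.04, -0.07 and 0.06 on the log2 scale in *gdf6Y* against EV and were not called there. In del9 against EV *Tgfb2* was at -0.12 (adjusted p = 0.0704 in edgeR's test). It was called lower there in 4 of 9 other settings, total counts and the length correction among them, and without EV replicate 2 or 6 or del9 replicate 1 (adjusted p down to 0.00856).

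Of 8 receptors, 2 fell with *gdf6Y* against EV (25.0% called) and 1 against del9 (12.5%). *Tgfbr2*, the type II receptor for TGF-β, fell in both comparisons, which the study had already reported from TM4 cells. It was counted at 6349 ± 81.2 with EV (SD, n = 6), 6391 ± 122 with del9 and 5786 ± 163 with *gdf6Y* (SD, n = 5). The highest *gdf6Y* sample, at 5937, lay below the lowest del9 sample, at 6216, and below all EV samples. The log2 fold change was -0.13 against EV (edgeR's adjusted p = 9.98e-05) and -0.14 against del9 (adjusted p = 0.00159), and it was called in all 9 other settings of both comparisons. *Tgfbr3*, the co-receptor betaglycan, fell by 0.15 on the log2 scale with *gdf6Y* and by 0.24 with del9 against EV (adjusted p = 5.09e-05 and 2.72e-14 in edgeR's test). With filterByExpr it was not called in *gdf6Y* against EV (adjusted p = 0.0592 in edgeR's test). In *gdf6Y* against del9 it was at 0.09 (adjusted p = 0.200), called higher in 2 of 9 other settings and without *gdf6Y* replicate 5. The type I receptors *Tgfbr1* and *Acvr1b* were at -0.01 and -0.07 against EV and were not called.

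Of 23 regulators and cofactors of the Smads, 3 rose and 4 fell in *gdf6Y* against EV (30.4% called, beside 12.9% of genes averaging at least 100 counts). *Ctdsp1*, a Smad phosphatase, and *Hdac1*, a histone deacetylase, rose by 0.12 and 0.10 on the log2 scale (adjusted p = 0.0157 and 0.0441 in edgeR's test). The Smad coactivator *Ep300*, the deubiquitinase *Usp9x* and the co-repressor *Ncor1* fell by 0.24, 0.22 and 0.15 (adjusted p = 2.89e-12, 9.38e-12 and 5.77e-06 in edgeR's test). All of these 5 were also called, in the same direction, in del9 against EV. There *Ncor1* kept the call in 5 of 9 other settings and 6 of 11 fits without a sample, and *Hdac1* in 6 and 8. *Ctdsp1* and *Usp9x* were lost there with the length correction only (adjusted p = 0.0928 and 0.0966 in edgeR's test), and *Ep300* was called throughout. In *gdf6Y* against del9 none of the 23 was called in the reported fit or with DESeq2, and 3 had an unadjusted p under 0.05. *Usp9x*, at -0.10 there (adjusted p = 0.0965 in edgeR's test), was called lower in 2 of 9 other settings and without *gdf6Y* replicate 1 or del9 replicate 1, 3 or 4, and *Ep300*, at -0.08 (adjusted p = 0.346), in 1 of 9 and without *gdf6Y* replicate 1. With the length correction *Ncor1* was at -0.06 against EV (adjusted p = 0.159 in edgeR's test), and *Ctdsp1* and *Hdac1* were lost as well (adjusted p = 0.106 and 0.134). *Ctdsp1* was lost without EV replicate 3 or *gdf6Y* replicate 2 (adjusted p up to 0.0733 in edgeR's test), and *Hdac1* in 9 of 11 such fits, all but those without EV replicate 2 or *gdf6Y* replicate 1 (up to 0.137).

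Of 31 listed target genes 30 could be tested, with no read on *Pthlh*. In *gdf6Y* against EV 5 rose and 5 fell, and in *gdf6Y* against del9 5 rose and 1 fell. The count depended on the method: 6 rose and 2 fell against EV with DESeq2, and 6 and 3 with filterByExpr, while against del9 DESeq2 called 3 rises and no fall and filterByExpr 1 rise. *Klf10* and *Snai1* rose in both. *Klf10*, a zinc finger gene also called TGF-β inducible early gene, was counted at 1006 ± 70.7 with EV (SD, n = 6), 990.1 ± 73.9 with del9 and 1212 ± 76.7 with *gdf6Y* (SD, n = 5). All *gdf6Y* samples lay above all del9 samples and the lowest lay within the EV range, with log2 fold changes of 0.27 and 0.29 (adjusted p = 2.98e-10 and 3.82e-10 in edgeR's test). It was called in every other setting of both comparisons and without each sample in turn. *Snai1*, a zinc finger repressor of E-cadherin, was counted at 538 ± 24.4 with EV, 574 ± 24.0 with del9 and 650.1 ± 31.0 with *gdf6Y*, above every sample of both other groups. Its log2 fold changes were 0.27 and 0.19 (adjusted p = 3.65e-07 and 0.0166 in edgeR's test). The call against del9 was lost with DESeq2 (0.0715), with filterByExpr (0.0839) and without *gdf6Y* replicate 3 or 5 or del9 replicate 1 (adjusted p up to 0.118 in edgeR's test).

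The other target calls did not hold in both comparisons. *Tagln*, a smooth muscle actin-binding protein, rose by 0.14 on the log2 scale with *gdf6Y* and by 0.12 with del9 against EV (adjusted p = 0.000141 and 0.000484 in edgeR's test). *Thbs1*, a matrix glycoprotein that activates latent TGF-β, fell by 0.23 with *gdf6Y* and by 0.25 with del9 (adjusted p = 9.02e-18 and 1.91e-22), from 32771 ± 1248 normalized counts with EV (SD, n = 6) to 27850.0 ± 1410 and 27516 ± 831 (SD, n = 5). *Fn1* (fibronectin) and *Itgav* (integrin alpha V) fell by 0.19 and 0.10 with *gdf6Y* against EV (adjusted p = 1.51e-12 and 0.00586 in edgeR's test). With del9 against EV they fell by 0.14 and 0.10 (adjusted p = 2.46e-07 and 0.00338). *Fn1* varied widely between *gdf6Y* samples, from 69524 to 96993 against 86232 to 94699 with EV, and DESeq2 did not call it (adjusted p = 0.102). *Itgav* was lost with the length correction (adjusted p = 0.206 in edgeR's test) and without *gdf6Y* replicate 3 (adjusted p = 0.0592).

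A further 3 target genes, named after their values were seen, were called in *gdf6Y* against del9 and not against EV. *Postn* and *Ltbp2*, both matrix genes, rose by 0.35 and 0.18 and the chromatin gene *Hmga2* fell by 0.18 against del9 (adjusted p = 0.000334, 0.000390 and 9.47e-07 in edgeR's test). They also differed between del9 and EV in the opposite direction, at -0.23, -0.19 and 0.24. Both comparisons share the del9 samples, so the opposite direction is not a separate observation. DESeq2 called none of the 3 in *gdf6Y* against del9 (adjusted p = 0.239, 0.135 and 0.758). In del9 against EV the call of *Postn* (adjusted p = 0.0184 in edgeR's test) was lost with DESeq2, with filterByExpr and with all 3 groups in one model. It was also lost without EV replicate 1, 3 or 4 or del9 replicate 3 or 5 (adjusted p up to 0.218 in edgeR's test).

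The BMP branch list gave a different picture in the same samples. The transducers *Smad1* and *Smad5* were at 0.02 and 0.01 on the log2 scale in *gdf6Y* against EV and were not called. *Smad9*, the inhibitory *Smad6* and *Smad7*, the helix-loop-helix inhibitors *Id1*, *Id2* and *Id3* and the transcription factor *Atoh8* rose in both comparisons. *Smad7*, which blocks the receptors of both branches, rose by 0.42 against EV and 0.35 against del9 (adjusted p = 1.48e-19 and 5.05e-12 in edgeR's test), and *Smad6* by 0.46 and 0.51. *Id1*, *Id2* and *Id3* rose by 0.90, 0.84 and 0.72 against EV, and *Atoh8* by 1.58 (adjusted p = 2.98e-40). The smallest of these 7 rises, 0.35, was larger than the largest absolute change of any member averaging at least 100 counts in the comparisons of *gdf6Y*, 0.13. All of the 7 but *Atoh8* had already been reported by the study as raised by *gdf6Y* in TM4 cells. The list was chosen with earlier results of these data known, so its contrast with the members is a description and not a test. The median log2 fold change was 0.68 and 0.58 for the 10 BMP branch genes, 0.02 and 0.06 for the 9 members and 0.03 and 0.02 for the 30 targets, beside -0.00211 and 0.00985 for all genes tested.

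With del9 against EV the members and lists moved as follows. None of the 3 transducers or 3 co-repressors was called, with log2 fold changes from -0.07 to 0.01. *Id1* and *Id2* rose, by 0.26 and 0.15 (adjusted p = 2.56e-10 and 0.0412 in edgeR's test), the latter lost in 7 of 9 other settings. Of the 30 targets 5 rose and 7 fell (40.0% called), of the 23 regulators 4 rose and 4 fell (34.8%), and of the receptors *Tgfbr3* fell, beside 9.25% of all genes and 21.7% of those averaging at least 100 counts. The split of the targets changed with the method: 3 rose and 3 fell with DESeq2, 5 and 10 with total counts, and 2 and 8 with the length correction.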

How the data were processed

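RNA-Seq of TM4 cells was analysed in 16 samples of 3 groups, assigned from the sample labels. The authors deposited raw counts per gene: they moved the unique molecular identifiers to the read names with UMI-tools, aligned with STAR 2.7.10a to GRCm39 (Ensembl release 107), removed PCR duplicates, and counted reads mapping to a single position and gene on its strand with FeatureCounts 2.0.3. No normalization was applied to the deposited counts. GENCODE M39, on the same build, gave each gene's symbol, position and exonic length and matched 56017 of 56748 identifiers. No exonic base of a member was shared with another counted gene on the same strand.

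Genes counted at least 1 time in a sample of the comparison were tested with edgeR 4.0.16 in R 4.3.3 (TMM, quasi-likelihood test, 2 groups per model), where the study's own analysis used DESeq2. The Benjamini-Hochberg adjustment was taken over all genes tested, and genes with an adjusted p below 0.05 were called. The 95% intervals are not adjusted. With this filter edgeR shared the variance almost fully across genes: the total degrees of freedom were 742 to 747 in *gdf6Y* against EV, 207024 in *gdf6Y* against del9 and 236034 in del9 against EV, of which a gene's own samples gave 9, 8 and 9. Genes with unusually wide spread therefore get small standard errors. Alternatives were DESeq2 1.42.0, its size factors, total counts, filterByExpr, no filter, a model of all 3 groups, replicate number as a block, a correction for gene length, both of these together, and each sample left out. The steps were tested on simulated counts.

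The members, lists and tests were chosen with earlier results of these data known. Named are all members, genes of a list called alike in both comparisons of *gdf6Y*, up to 3 genes per direction and list with the smallest adjusted p against EV, and for each called member the 2 genes with the most similar profile among genes averaging at least 100 counts. Results for some listed genes are not reported here. The total of 21486850 to 26444903 reads per sample limits precision for low genes such as *Tgfbi*.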

Additional observations from a re-analysis of the deposited data

Results flagged for a closer look

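The normalized count of *Smad3* in the EV samples was flagged because 1 sample lay apart from the others. EV replicate 2 was at 946 and the other 5 samples were between 995 and 1025, and the gap made up 0.627 of the whole range, just over the critical value of 0.625 for 6 samples. It was the only one of 27 groups of values (9 members in 3 groups) to be flagged, where chance flags about 1 in 20. Without that sample *Smad3* was at -0.01 on the log2 scale in del9 against EV.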

How the results depend on the processing

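The members called numbered 1 in each comparison, and with DESeq2's size factors or total counts, as with the length correction in both comparisons of *gdf6Y*, it was still 1. In *gdf6Y* against EV it was 2 with DESeq2, with filterByExpr, with the replicate number as a block (*Smad2* beside *Pmepa1*) and with the block and the length correction together (*Skil* beside *Pmepa1*), and 0 with no filter on low counts and with all 3 groups in one model. In *gdf6Y* against del9 it was 0 with filterByExpr and with no filter, and in del9 against EV 0 with no filter and with the length correction. Leaving out 1 sample gave 0 to 1 in every comparison. That *Smad2*, *Pmepa1*, *Skil* and *Ldlrad4* cross the threshold under such changes was not traced to a cause.

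The genes called in *gdf6Y* against EV numbered 1338 and rose to 2061 with the replicate block, and ranged from 794 (without *gdf6Y* replicate 5) to 1751 when 1 sample was left out. In *gdf6Y* against del9 the 261 genes became 81 with DESeq2, 45 with filterByExpr, 661 with the block and 639 with the block and the length correction, and 160 (without del9 replicate 2) to 441 (without del9 replicate 1) with 1 sample left out. In del9 against EV the 2425 genes ranged from 1906 to 2996 (the block) and from 1692 to 2715 with 1 sample left out. The causes were not tested.

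Of 528 refitted fold changes of the members, 474 kept their direction and side of the threshold, 27 were no longer past it, 4 newly passed it and 23 changed sign. The sign changed in del9 against EV for *Tgif1* with DESeq2 (-0.00255), DESeq2's size factors (-0.00264), total counts (-0.0137), filterByExpr (-0.00423), all 3 groups in one model (-0.00182), the length correction (-0.0124) and length correction with block (-0.0110), and for *Smad3* with total counts (-0.00871), the length correction (-0.00805) and that with the block (-0.00944). With 1 sample left out, the ranges that included a change of sign were -0.0122 to 0.0150 for *Tgif1*, -0.0119 to 0.0158 for *Smad3* and -0.0201 to 0.00326 for *Ski* in del9 against EV, -0.00273 to 0.0276 for *Smad3* and -0.00199 to 0.0278 for *Smad4* in *gdf6Y* against del9, and -0.137 to 0.337 for *Tgfbi* in *gdf6Y* against EV.

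The groups share replicate numbers, and whether the numbers pair the samples was checked over 12584 genes. Correlations of same-numbered samples' deviations from their group means were between 0.00400 and 0.198 in *gdf6Y* and EV, 0.0994 and 0.163 in *gdf6Y* and del9 and -0.0282 and 0.161 in del9 and EV, and 3, 2 and 1 of 5 pairs correlated best with their own number. The pairing was therefore not assumed, and the block is given as an alternative only. *Smad2* passed the threshold with it against EV (edgeR's adjusted p = 0.0151, at -0.09). Under the block 10 targets rose and 6 fell in *gdf6Y* against EV, and 8 rose and 2 fell against del9. There *Tgfbr3* rose (edgeR's adjusted p = 0.0162) and *Usp9x* and *Ep300* fell (0.00129 and 0.0415). Calls over the whole table rose under the block as well. They went from 1338 to 2061 of 26316 genes against EV and from 261 to 661 of 25878 against del9.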
